A study of Mus musculus with 8 samples.

Results

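The genes described here encode the subunits of ionotropic neurotransmitter receptors, which are ion channels opened by acetylcholine, GABA, glycine or glutamate. They were taken as the protein-coding genes whose NCBIM37 symbols begin with Chrn, Gabr, Gria, Grid, Grik, Grin or Glr followed by a subunit letter or number. Of 36536 Ensembl genes with counts, of which 21408 were annotated as protein-coding, 59 matched. One of these, *Grid2ip*, encodes a protein that binds a delta receptor and no subunit, and it was counted apart. The remaining 58 subunits were 16 of nicotinic acetylcholine receptors, 19 of GABA-A receptors, 5 of glycine receptors, 4 of AMPA receptors, 5 of kainate receptors, 7 of NMDA receptors and 2 of delta receptors.

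Each receptor is an assembly of several subunits around a pore, and the subunit mix sets which ligand opens it, how fast it closes and which ions pass. Nicotinic, GABA-A and glycine receptors are pentamers of one gene superfamily, whereas AMPA, kainate, NMDA and delta receptors are tetramers of another. In the cochlea, AMPA receptors on spiral ganglion neurons receive the signal of inner hair cells, and the nicotinic receptor of *Chrna9* and *Chrna10* receives efferent acetylcholine on hair cells.

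RNA-seq counts were used from cells of *LFng-GFP* BAC transgenic mice (B6;FVB-Tg(Lfng-EGFP)HM340Gsat/Mmucd), a transgene carried by every group. Cells of the brightest GFP+ gate and GFP- cells were sorted from cochleas at postnatal day 1 (P1) and day 6 (P6), without treatment or culture, and each of these 4 groups had 2 libraries. The transgene is driven by *Lfng* regulatory sequence and labels border, inner phalangeal, outer pillar and Deiters' cells, so GFP+ cells are several supporting cell types together. Cells of low GFP signal, which the study took to be probably inner pillar cells and inner hair cells, were left out of both fractions, so GFP- cells are not all the remaining cells of the dissected duct. The lateral wall and stria vascularis were taken off at P1 but only in part at P6, so that tissue content and age cannot be told apart in comparisons between ages. The labels do not say that libraries 1 and 2 of a group came from separate animals, so p-values measure the spread between these libraries, which may be technical.

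Counts on genes ranged from 17769024 to 67695039 per library. Levels are given as CPM, counts scaled to a total of 1000000 per library, where 1 count is worth 0.0148 to 0.0563 CPM. The 6 supporting cell markers summed to 5085 to 8242 CPM in GFP+ libraries and 139 to 254 CPM in GFP- libraries, as the labels say. The 9 hair cell markers summed to 731 and 855 CPM in P1 GFP+, 463 and 399 in P1 GFP-, 443 and 525 in P6 GFP+ and 340 and 382 CPM in P6 GFP- libraries, and 6 of the 9 were higher in GFP+ cells at each age by the criteria used for subunits. Mesenchyme markers summed to 12277 to 16687 CPM in GFP- libraries, and to 253 to 2481 CPM in GFP+ libraries. P6 GFP+ library 2 stood apart from library 1, with 2481 against 720 CPM of mesenchyme markers and 2366 against 1114 CPM of Schwann cell and glia markers. The 10 neuron markers summed to 234 and 779 CPM in P1 GFP- libraries, the higher value in library 2, to 172 and 121 CPM in P6 GFP- libraries and to 56.9 to 108 CPM in GFP+ libraries. Values of subunits that touch these libraries are given library by library.

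Between 50 and 56 of the 58 subunits had at least 1 count in a library, and 24 to 38 reached 1 CPM. Levels of different genes are compared only per kilobase of exon (CPM per kb, mean ± SD, n = 2). *Grik5*, a high-affinity kainate subunit that forms channels only together with others, was highest of all subunits in P1 GFP+ cells, at 33.3 ± 2.66 CPM per kb, and held 26.5% of the summed level per kb. Next in P1 GFP+ cells came *Chrng* at 19.6 ± 0.856, *Chrnb1* at 18.2 ± 0.535, *Gria4* at 11.7 ± 1.69 and *Chrna10* at 10.4 ± 2.11 CPM per kb, the last pair overlapping between libraries. In P1 GFP- cells *Grik5* was again first at 39.4 ± 0.972 CPM per kb, followed by *Gria3* at 15.4 ± 2.39 and *Grik1* at 15.0 ± 3.65, whose libraries overlapped. At P6, *Grik5* led GFP+ cells at 15.8 ± 0.818 CPM per kb and *Glrb* led GFP- cells at 42.3 ± 0.189 CPM per kb. The first-ranked genes of the supporting cell fraction at P1 thus included a pair of subunits known from embryonic muscle and one known from hair cells.

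**Figure D1:**
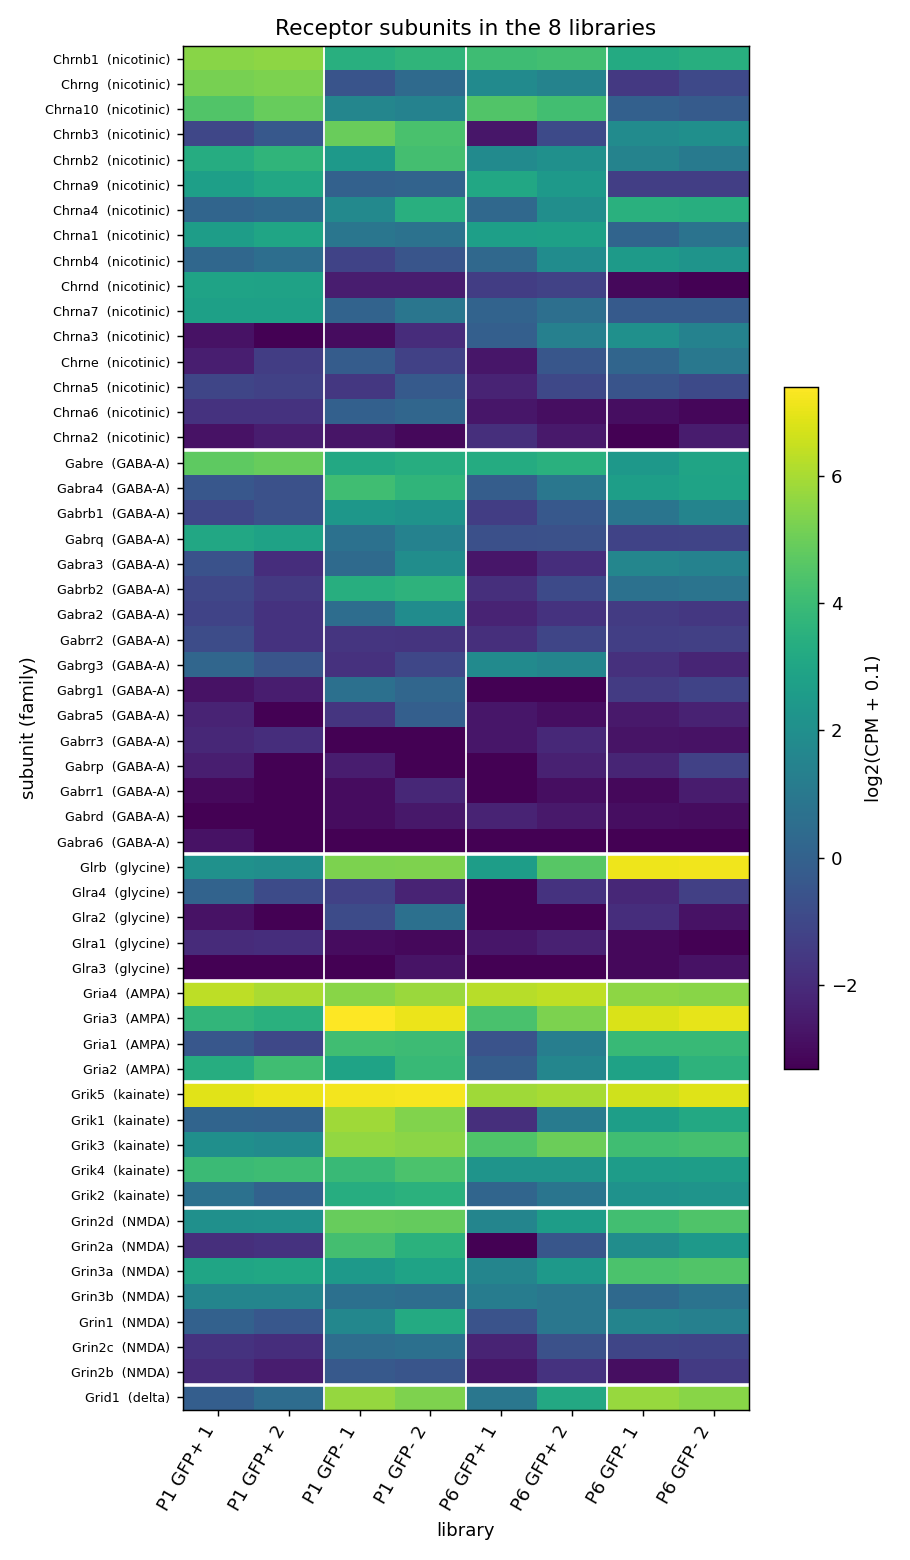
Levels of 54 subunits as log2(CPM + 0.1), one row per subunit, grouped by receptor family and ordered within a family by level per kb, and one column per library. White lines part families and groups. *Chrng* is bright in the P1 GFP+ columns (36.5 and 38.8 CPM) and *Glrb* in the P6 GFP- columns (141 and 142 CPM).

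The first comparison asks which subunits distinguish supporting cells from the other cochlear cells at each age. The criteria were a fold change above 4 (log2 of 2) with both p and adjusted p of edgeR's quasi-likelihood test under 0.01. These limits on fold change and p follow the study. It also required that both of its programs, DESeq and Cufflinks, agree, and set a minimum expression for its filtered lists. Neither was applied here. At P1, 47 of the 58 subunits had enough counts to be tested. Of these, 9 were higher in GFP+ cells (19.1%, against 6.46% of the 18682 genes tested) and 21 were lower (44.7%, against 11.4% of all genes). The median log2 fold change of the tested subunits was -2.17, and that of all genes was 0.01. At P6, 45 subunits were tested. Of them, 7 were higher in GFP+ cells (15.6%, against 4.88% of 18294 genes) and 5 were lower (11.1%, against 3.10%), with a median of -0.98 beside -0.02 for all genes. At an adjusted p below 0.05 with no fold limit, 15 were higher and 24 lower at P1, against 25.5% and 28.1% of all genes. Of the 9 subunits higher at P1, 7 were nicotinic and 2 were GABA-A subunits, and none of the 18 glutamate receptor subunits tested was among them, whereas 11 of those 18 were lower. Of the 10 neuron markers, 9 were also lower in P1 GFP+ cells and 1 at P6, and their part in the subunit values was not tested. In sorted bulk RNA, fewer cells with a transcript and less of it per cell cannot be told apart.

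**Figure D2:**
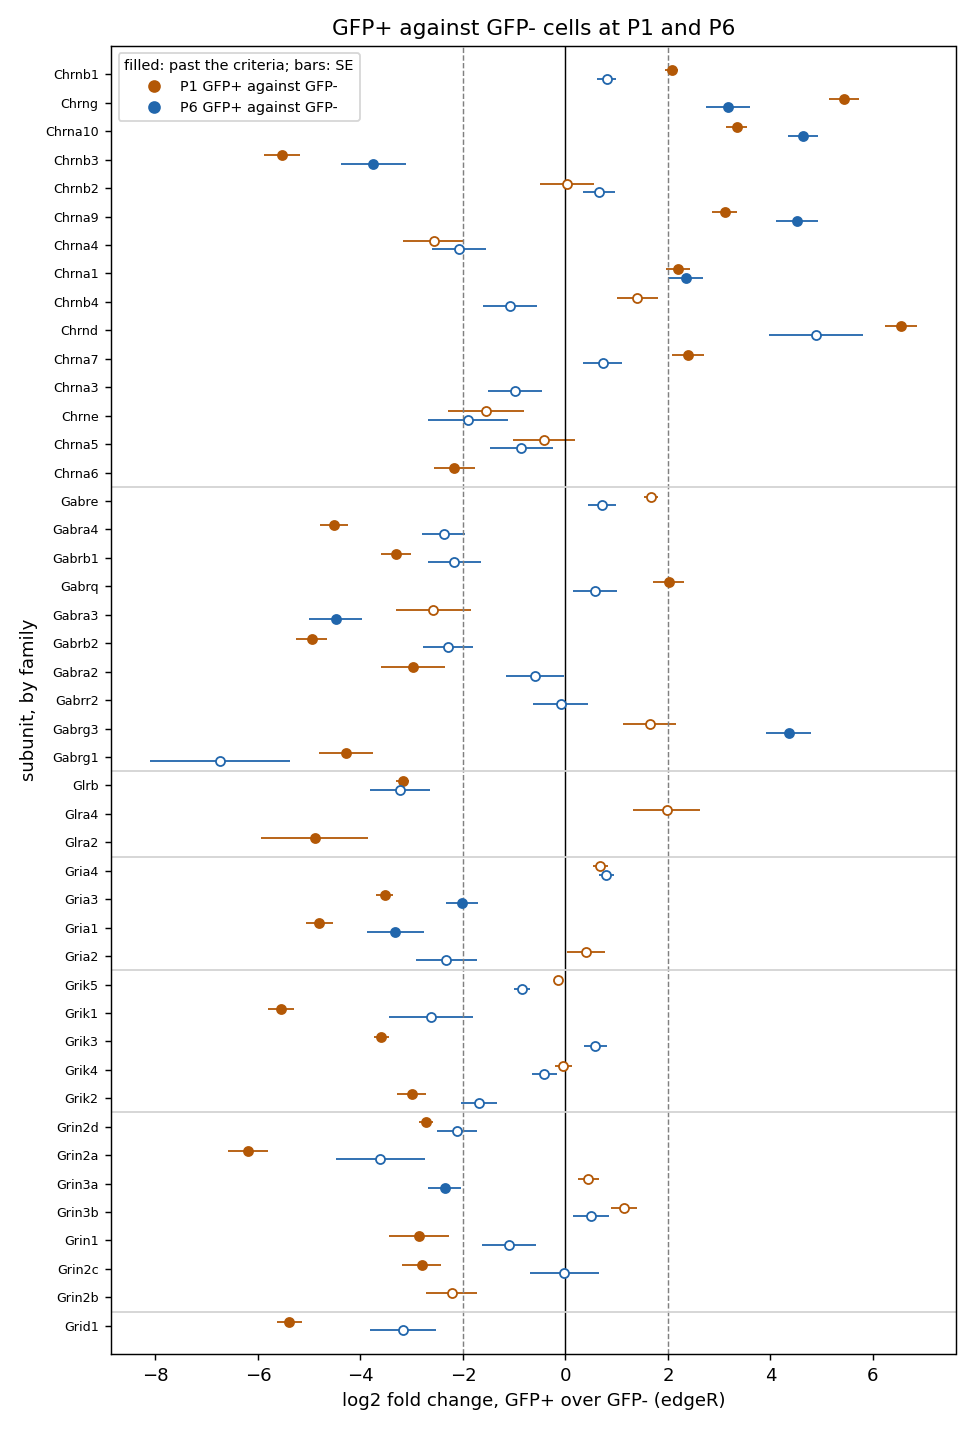
The log2 fold change of GFP+ over GFP- cells at P1 (orange) and P6 (blue) for subunits tested at either age, with bars of 1 SE. Filled points were past the criteria and dashed lines mark a 4-fold change. At P1, 8 filled points lie to the right and 19 to the left, and at P6 there are 5 and 5 among the subunits drawn. The P6 point of *Gabrg1* comes from GFP+ libraries with 0 counts.

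Of the 5 subunits of the muscle acetylcholine receptor, 4 were higher in GFP+ cells at P1. *Chrnd* (ENSMUSG00000026251, chromosome 1, 89087227 to 89096644), the delta subunit present in both embryonic and adult muscle receptors, had 7.29 and 7.03 CPM in P1 GFP+ cells and 0.0792 and 0.0792 CPM in P1 GFP- cells. The libraries did not overlap, and the log2 fold change was 6.55 (SE 0.31, adjusted p = 3.03e-05 by edgeR). *Chrng* (ENSMUSG00000026253, chromosome 1, 89102386 to 89108410) encodes the gamma subunit of the embryonic receptor and starts 5741 bases beyond the end of *Chrnd*, on the same strand. It had 36.5 and 38.8 CPM in P1 GFP+ cells against 0.581 and 1.2 CPM in P1 GFP- cells, a log2 fold change of 5.43 (SE 0.30, adjusted p = 4.89e-05 by edgeR). *Chrnd* had 8 counts in the P1 GFP- libraries together and 509 in the P1 GFP+ libraries, and the lowest GFP+ value of each gene lay far above the highest GFP- value.

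*Chrna1* (ENSMUSG00000027107, chromosome 2, 73401272 to 73418395), whose product binds acetylcholine, had 6.20 and 7.87 CPM in P1 GFP+ and 1.74 and 1.54 CPM in P1 GFP- cells, and differed by 2.20 (SE 0.23, adjusted p = 0.000572 by edgeR) on the log2 scale. *Chrnb1* (ENSMUSG00000041189, chromosome 11, 69597538 to 69609445), the beta subunit of muscle receptors, had 45.2 and 47.1 CPM against 10.7 and 12.7 CPM and a log2 fold change of 2.07 (SE 0.12, adjusted p = 6.24e-05 by edgeR). That change is close to the 4-fold limit, and with scaling by library totals it was 1.97. *Chrne*, the subunit that replaces gamma in adult muscle, was the exception, at 0.0873 and 0.281 CPM in P1 GFP+ and 0.765 and 0.317 CPM in P1 GFP- cells, a log2 difference of -1.55 that did not pass the test (adjusted p = 0.129 by edgeR). Of the 8 skeletal muscle markers, 4 had enough counts to be tested at P1, and they went both ways. *Des* and *Tnnt3* were lower in GFP+ cells. The list summed to 2.36 and 2.17 CPM in P1 GFP+ libraries and to 26.2 and 22.6 CPM in P1 GFP- libraries. *Des*, which is not confined to skeletal muscle, made up most of the P1 GFP- sums, at 23.8 and 20.4 CPM. In P1 GFP+ libraries it did not, at 0.371 and 0.924 CPM. *Mylpf*, a fast muscle myosin light chain, had 1.51 and 0.683 CPM in P1 GFP+ and 0.317 and 0.269 CPM in P1 GFP- cells and missed the criteria (log2 fold change 2.06, SE 0.51, adjusted p = 0.0163 by edgeR). *Acta1*, skeletal muscle actin, had 0.305 and 0.241 CPM against 0.0528 and 0.174 CPM (adjusted p = 0.146 by edgeR), and the defining genes *Myog*, *Myod1* and *Ckm* were at 0.412 CPM or below in every library. The part of muscle cells in the subunit values was not tested.

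At P6 *Chrna1*, *Chrng*, *Chrnd* and *Chrnb1* were again higher in GFP+ cells, each at an adjusted p below 0.05 by edgeR. Only *Chrna1* and *Chrng* passed the criteria. *Chrna1* remained higher in GFP+ cells, at 6.53 and 6.76 CPM against 0.989 and 1.61 CPM, a log2 fold change of 2.35 (SE 0.34, adjusted p = 0.00675 by edgeR). *Chrng* had 3.38 and 2.68 CPM in GFP+ and 0.243 and 0.414 CPM in GFP- cells and also passed, with 3.18 (SE 0.43, adjusted p = 0.00537 by edgeR). *Chrnd* was down to 0.281 and 0.335 CPM in GFP+ cells and had 1 count in the P6 GFP- libraries together, so its ratio of 40.7 has a 95% exact interval of 6.27 to 1715 for counting error alone, and it missed the criteria (adjusted p = 0.0132 by edgeR). *Chrnb1* had 16.5 and 17.8 CPM against 9.29 and 10.3 CPM, and its log2 difference of 0.80 did not pass (adjusted p = 0.0263). Within GFP+ cells from P1 to P6, *Chrnd* fell by 4.42 and *Chrng* by 3.55 on the log2 scale (adjusted p = 0.00287 and 0.00240 by edgeR), whereas the difference for *Chrna1* was 0.01 (adjusted p = 0.971). Both *Chrnd* and *Chrng* had libraries of the separate ages that did not overlap.

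The stretches just upstream of these genes are shown for a pair of muscle-type subunits and the pair of the hair cell receptor, to compare them for one short motif. They are the 250 bases before the annotated start from RefSeq, build GRCm38.p6, on the strand of the gene. CAGCTG, which reads the same on both strands and is one form of the E-box CANNTG bound by myogenic and many other basic helix-loop-helix factors, is in capitals.
Chrng (chr1:87205561-87205810, plus strand): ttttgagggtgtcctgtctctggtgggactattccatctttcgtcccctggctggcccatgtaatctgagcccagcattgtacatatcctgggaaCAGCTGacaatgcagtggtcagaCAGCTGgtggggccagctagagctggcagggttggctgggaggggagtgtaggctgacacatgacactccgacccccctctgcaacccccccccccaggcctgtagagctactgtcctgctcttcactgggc
Chrna1 (chr2:73580339-73580588, minus strand): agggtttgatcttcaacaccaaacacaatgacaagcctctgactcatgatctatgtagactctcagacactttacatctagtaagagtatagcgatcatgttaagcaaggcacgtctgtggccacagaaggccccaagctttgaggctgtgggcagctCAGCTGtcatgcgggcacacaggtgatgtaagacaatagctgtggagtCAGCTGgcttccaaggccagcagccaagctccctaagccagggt
Chrna9 (chr5:65966874-65967123, plus strand): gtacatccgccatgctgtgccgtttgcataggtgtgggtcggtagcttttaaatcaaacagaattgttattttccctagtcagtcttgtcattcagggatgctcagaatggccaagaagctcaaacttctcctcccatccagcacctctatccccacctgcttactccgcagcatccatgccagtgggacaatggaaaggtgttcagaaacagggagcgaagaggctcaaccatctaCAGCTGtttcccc
Chrna10 (chr7:102116714-102116963, minus strand): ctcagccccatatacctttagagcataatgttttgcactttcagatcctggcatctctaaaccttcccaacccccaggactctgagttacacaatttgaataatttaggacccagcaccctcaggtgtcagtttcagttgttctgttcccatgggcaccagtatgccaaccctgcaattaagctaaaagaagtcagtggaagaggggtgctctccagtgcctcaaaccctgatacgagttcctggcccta
The windows of *Chrng* and *Chrna1* hold 2 copies each, that of *Chrna9* holds 1 and that of *Chrna10* holds 0. The printed muscle-type pair are the only subunit windows with 2 or more copies. Of 32851 windows in the table, 13.0% held CAGCTG and 1.26% held 2 or more, while 66.2% held some CANNTG. Of the 58 subunits, 41 had an entry with 46 windows, 7 of which held CAGCTG. The other 17 had no entry, *Chrnd* among them, so its upstream stretch was not examined. *Chrne*, the muscle-type subunit that was not higher in GFP+ cells, also holds 1 copy in its window, which is not printed. *Chrnb1*, a muscle-type subunit that was higher in P1 GFP+ cells, was not among the subunits found with CAGCTG. That search covered only the 41 subunits with an entry, and whether *Chrnb1* had one is not stated here. The motif was chosen after the levels were seen, and a match is a description of the letters and not a binding site.

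The subunits of the hair cell efferent receptor were higher in GFP+ cells at both ages. *Chrna9* (ENSMUSG00000029205, chromosome 5, 66326160 to 66368565) had 6.48 and 8.48 CPM in P1 GFP+ and 0.897 and 0.951 CPM in P1 GFP- cells, and 8.44 and 5.26 CPM against 0.292 and 0.295 CPM at P6. *Chrna10* (ENSMUSG00000066279, chromosome 7, 109259780 to 109265227), its partner subunit, had 22.3 and 29.8 CPM against 2.96 and 2.57 CPM at P1, and 22.6 and 17.9 CPM against 0.876 and 0.739 CPM at P6. No GFP+ library overlapped a GFP- library for either gene. The log2 fold changes of *Chrna9* were 3.11 (SE 0.25, adjusted p = 0.000181 by edgeR) at P1 and 4.52 (SE 0.41, adjusted p = 0.00186 by edgeR) at P6. Those of *Chrna10* were 3.34 (SE 0.20, adjusted p = 6.10e-05 by edgeR) and 4.64 (SE 0.29, adjusted p = 0.000810 by edgeR). Per kb, *Chrna10* was 3.00 to 4.22 times as high as *Chrna9* in the 8 libraries.

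Of 9 hair cell markers tested, 6 were higher in GFP+ cells at both ages, as this pair was, and 3 were not past the criteria at either age. *Pou4f3*, a hair cell transcription factor, had 12.1 and 15.9 CPM in P1 GFP+ and 0.95 and 1.46 CPM in P1 GFP- cells, and *Otof*, which acts in exocytosis at their synapse, had 151 and 191 CPM against 18.2 and 16.6 CPM. At P6, *Pou4f3* had 12.2 and 9.01 CPM against 0.470 and 0.547 CPM. *Slc17a8*, the glutamate transporter of inner hair cell vesicles, had 4.43 and 4.58 CPM in P1 GFP+ and 4.51 and 5.28 CPM in P1 GFP- cells, and *Myo6* had 250.2 and 325 CPM in P6 GFP+ and 312 and 339.6 CPM in P6 GFP- cells, and neither passed at either age. Their part in the values of *Chrna9* and *Chrna10* was not tested. *Kcnn2*, the calcium-gated potassium channel that works beside this receptor in hair cells, did not share the direction, at 3.88 and 4.98 CPM in P1 GFP+ and 6.10 and 6.13 CPM in P1 GFP- cells (log2 difference -0.37, adjusted p = 0.178 by edgeR). The ages did not differ past the criteria for *Chrna9* or *Chrna10* in either fraction, with log2 differences of -0.03 and -0.27 in GFP+ cells. In GFP- cells both genes were nevertheless lower at P6 than at P1, without overlap of libraries. *Chrna9* went from 0.897 and 0.951 CPM to 0.292 and 0.295 CPM there, and *Chrna10* from 2.96 and 2.57 CPM to 0.876 and 0.739 CPM. Of the 9 hair cell markers, 2 fell in GFP+ cells from P1 to P6, namely *Atoh1*, from 7.62 and 9.48 CPM to 0.844 and 1.04 CPM, and *Barhl1*, from 18.9 and 27.8 CPM to 5.06 and 4.39 CPM.

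**Figure D3:**
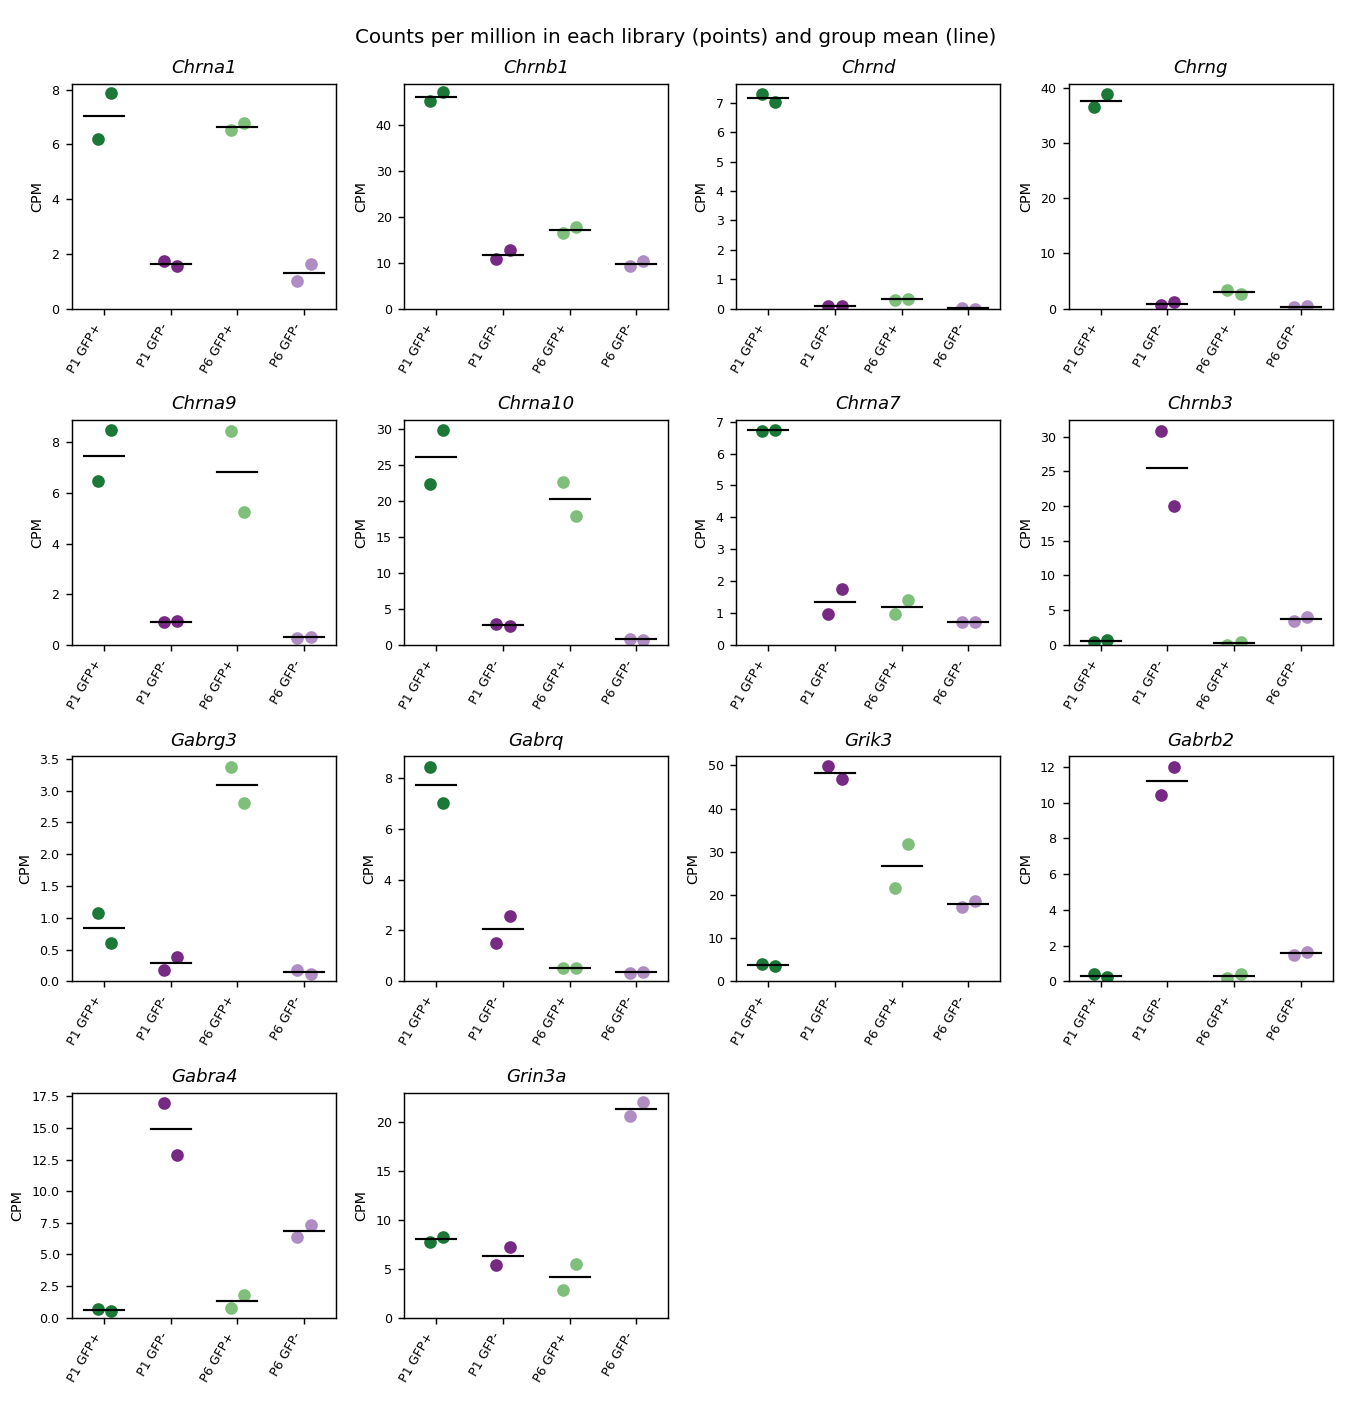
CPM in each library (points, library 1 left and library 2 right) and the group mean (line) for 14 subunits, each panel on its own linear axis from 0. The P1 GFP+ points of *Chrnd*, *Chrng*, *Chrna7* and *Gabrq* lie above all other groups, those of *Chrna9* and *Chrna10* are high in GFP+ cells at both ages, and *Grik3* and *Grin3a* have different orders of the fractions at P1 and P6.

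Among neuronal nicotinic subunits, *Chrna7* was higher and *Chrnb3* and *Chrna6* were lower in P1 GFP+ cells. *Chrna7* (ENSMUSG00000030525, chromosome 7, 70243578 to 70357455), which can form channels alone, had 6.70 and 6.75 CPM in P1 GFP+ cells and 0.713 to 1.74 CPM in the other 6 libraries. Its log2 fold change was 2.38 (SE 0.31, adjusted p = 0.00137 by edgeR) at P1 and 0.73 at P6, where it did not pass (adjusted p = 0.199), and in GFP+ cells it fell from P1 to P6 by 2.40 (adjusted p = 0.00917). The difference between the ages in the fraction ratio was -1.67 (adjusted p = 0.0881 by edgeR) and did not pass.

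*Chrnb3* (ENSMUSG00000031492, chromosome 8, 28479183 to 28510201) and *Chrna6* lie 3484 bases apart on chromosome 8, on opposite strands. *Chrnb3* encodes an accessory beta subunit of neuronal receptors, and *Chrna6* an alpha subunit that can assemble with it. *Chrnb3* had 0.393 and 0.683 CPM in P1 GFP+, 30.9 and 20.0 in P1 GFP-, 0.0563 and 0.435 in P6 GFP+ and 3.5 and 3.96 CPM in P6 GFP- cells. GFP- cells were higher at both ages without overlap, with log2 fold changes of -5.53 (SE 0.36, adjusted p = 8.42e-05 by edgeR) at P1 and -3.75 (SE 0.63, adjusted p = 0.00945 by edgeR) at P6, and within GFP- cells *Chrnb3* fell by 2.58 from P1 to P6 (adjusted p = 0.00116). *Chrna6* had 0.196 and 0.201 CPM in P1 GFP+ and 0.871 and 1.06 CPM in P1 GFP- cells (log2 fold change -2.17, SE 0.40, adjusted p = 0.00537 by edgeR), a call lost with DESeq2's test (adjusted p = 0.015). It held 100 counts in P1 GFP- and 3 in P6 GFP- libraries, a ratio of 42.7 with a 95% exact interval of 14.2 to 211, and its fall with age passed (adjusted p = 0.00237 by edgeR).

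A second cluster, *Chrna5*, *Chrna3* and *Chrnb4* on chromosome 9, holds gaps of 3563 and 1596 bases. *Chrna3*, the alpha subunit of autonomic ganglion receptors, had 0.0264 and 0.158 CPM in P1 GFP- and 4.02 and 2.56 CPM in P6 GFP- cells, and rose by 5.14 (SE 0.60, adjusted p = 0.00225 by edgeR). *Chrnb4*, its usual partner, had 0.343 and 0.618 CPM and 5.63 and 4.61 CPM in the same groups and rose by 3.56 (SE 0.36, adjusted p = 0.00144 by edgeR). *Chrna5*, between 0.113 and 0.729 CPM in the 8 libraries, passed in no comparison. In GFP+ cells *Chrna3* had 0.0436 and 0 CPM at P1 and 0.844 and 2.41 CPM at P6, where the higher value was in library 2, and it missed the criteria (adjusted p = 0.0173).

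*Chrna4* and *Chrnb2*, which form the commonest brain receptor, passed in no comparison. *Chrna4* had 3.22 and 10.6 CPM in P1 GFP- cells and *Chrnb2* 5.30 and 18.3 CPM, more of each in library 2, the library with the higher neuron marker sum. In P6 GFP- cells, where neuron markers summed to 172 and 121 CPM, *Chrna4* had 10.9 and 10.6 CPM and *Chrnb2* 2.66 and 2.01 CPM. In GFP+ cells *Chrna4* had 1.03 and 1.17 CPM at P1 and 1.13 and 3.88 CPM at P6. It was lower than in GFP- cells at both ages by the looser threshold (adjusted p = 0.0127 and 0.0313 by edgeR). The part of neurons in these values was not tested.

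GABA-A subunits went both ways, with 2 of the 12 tested higher and 6 lower in GFP+ cells at P1, and 3 of 13 higher and 1 lower at P6. Of the alpha and beta subunits, 5 of the 7 tested at P1 were lower. *Gabrb2* (ENSMUSG00000007653, chromosome 11, 42233259 to 42446092), a beta subunit of synaptic receptors, had 0.393 and 0.241 CPM in P1 GFP+ and 10.5 and 12 CPM in P1 GFP- cells, a log2 fold change of -4.95 (SE 0.29, adjusted p = 6.33e-05 by edgeR). *Gabra6*, which lies 98684 bases from it on chromosome 11, had 2 counts in P1 GFP+ library 1 and 0 in the other libraries and was not tested.

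*Gabrg3* (ENSMUSG00000055026, chromosome 7, 63971835 to 64642558), a gamma subunit, had 1.07 and 0.603 CPM in P1 GFP+ and 0.185 and 0.380 CPM in P1 GFP- cells, which missed the criteria (adjusted p = 0.0377), and 3.38 and 2.81 CPM against 0.178 and 0.118 CPM at P6, which passed with 4.35 (SE 0.43, adjusted p = 0.00228 by edgeR). The libraries did not overlap at either age. The difference between ages in the ratio did not pass (adjusted p = 0.0624 by edgeR).

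*Gabrq* (ENSMUSG00000031344, chromosome X, 70070517 to 70087941), the theta subunit, had 8.44 and 7.03 CPM in P1 GFP+, 1.5 and 2.58 in P1 GFP-, 0.506 and 0.536 in P6 GFP+ and 0.340 and 0.355 CPM in P6 GFP- cells. P1 GFP+ cells stood above all other libraries. The log2 fold change at P1 was 2.01 (SE 0.31, adjusted p = 0.00261 by edgeR), which lay at the 4-fold limit and was 1.9 with library totals. *Gabrq* fell from P1 to P6 in GFP+ cells by 3.79 (adjusted p = 0.00356) and in GFP- cells by 2.37 (adjusted p = 0.00918), the latter lost with the replicate number as a block (adjusted p = 0.019). *Gabre*, the epsilon subunit on the same stretch of the X chromosome, had the highest level per kb of the family. It had 26.6 and 29.6 CPM in P1 GFP+ and 8.76 and 10.1 CPM in P1 GFP- cells, and its log2 difference of 1.67 (SE 0.14, adjusted p = 0.000195 by edgeR) stayed under 4-fold.

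The GABA-A subunits lower in P1 GFP+ cells included *Gabra2*, *Gabra4*, *Gabrb1*, *Gabrb2* and *Gabrg1*. *Gabra4* (ENSMUSG00000029211, chromosome 5, 71960973 to 72049547), found in receptors outside synapses, had 0.655 and 0.522 CPM in P1 GFP+ and 17.0 and 12.9 CPM in P1 GFP- cells, a log2 fold change of -4.52 (SE 0.27, adjusted p = 6.56e-05 by edgeR). *Gabrg1* had 0.0436 and 0.0803 CPM against 1.45 and 1.08 CPM, and a log2 fold change of -4.28 (SE 0.53, adjusted p = 0.00105 by edgeR), from 4 counts in GFP+ cells. These genes lie with *Gabra2* and *Gabrb1* in one cluster on chromosome 5, whose 4 members were all lower in P1 GFP+ cells. At P6 *Gabrg1* had 0 counts in the GFP+ libraries and was at least 4.79-fold lower against a floor of 3 counts over the group, and it did not pass (adjusted p = 0.0224). *Gabra3*, an alpha subunit of the X chromosome, was the GABA-A subunit lower in GFP+ cells at P6, at 0.0563 and 0.167 CPM against 2.97 and 2.6 CPM (log2 fold change -4.48, adjusted p = 0.00355). At P1 it had 0.545 and 0.161 CPM against 1.19 and 3.76 CPM and missed the criteria (adjusted p = 0.0277).

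The glycine receptor subunit with the highest level per kb in every library was *Glrb* (ENSMUSG00000028020, chromosome 3, 80647521 to 80717582), the beta subunit that ties the receptor to the scaffold protein gephyrin. It held 69.1% and 80.1% of the family's level per kb in P1 GFP+ libraries, where *Glra4* held 26.6% and 15.2%, and 95.7% to 99.7% in the other 6. *Glrb* had 4.15 and 3.86 CPM in P1 GFP+ and 38.7 and 39.5 CPM in P1 GFP- cells, with no overlap and a log2 fold change of -3.18 (SE 0.13, adjusted p = 2.20e-05 by edgeR). At P6 the GFP+ libraries differed, at 6.13 and 24.0 CPM, and both stayed below the GFP- libraries at 141 and 142 CPM. That difference of -3.23 missed the criteria (adjusted p = 0.0123), and the higher GFP+ value was in library 2, the library with more mesenchyme and glia marker counts. Their part in it was not tested.

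Within GFP- cells *Glrb* rose from P1 to P6 by 2.05 (SE 0.10, adjusted p = 0.000122 by edgeR), a change that is at the 4-fold limit and was 1.85 with library totals. No alpha subunit, which binds glycine, came near this level. *Glra4* reached 0.960 CPM at most, in P1 GFP+ library 1. *Glra2* had 2 counts in P1 GFP+ and 109 in P1 GFP- libraries, 0.449 and 1.46 CPM, a ratio of 38.2 with a 95% exact interval of 10.3 to 319. It was past the criteria (adjusted p = 0.00965 by edgeR), but not with all 8 libraries in the fit (adjusted p = 0.010).

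AMPA subunits, which carry fast excitation, differed in their mix between the fractions. *Gria4* (ENSMUSG00000025892, chromosome 9, 4417899 to 4796234) made up 73.7% to 84.5% of AMPA levels per kb in GFP+ libraries and 25.2% to 34.0% in GFP- libraries. *Gria3* (ENSMUSG00000001986, chromosome X, 38754031 to 39031778) made up 50.2% to 60.8% in GFP- libraries and 7.98% to 21.9% in GFP+ libraries. *Gria4* itself differed by less than 4-fold, at 81.1 and 66.1 CPM in P1 GFP+ and 44.2 and 54.5 CPM in P1 GFP- cells (log2 difference 0.68, adjusted p = 0.0121), and 76.4 and 83.3 against 46.8 and 44.4 CPM at P6. *Gria3* had 13.1 and 11.2 CPM in P1 GFP+ and 168 and 135 CPM in P1 GFP- cells, a log2 fold change of -3.53 (SE 0.16, adjusted p = 2.91e-05 by edgeR). At P6 it had 20.1 and 39.0 CPM against 109 and 129 CPM, with -2.01 (SE 0.32, adjusted p = 0.00809 by edgeR), which lies at the 4-fold limit and was -1.99 with DESeq2's size factors.

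*Gria1* (ENSMUSG00000020524, chromosome 11, 56824889 to 57143746) was lower in GFP+ cells at both ages. It had 0.655 and 0.402 CPM against 17.4 and 16 CPM at P1, and 0.563 and 2.28 CPM against 14.8 and 14.7 CPM at P6. The log2 fold changes were -4.80 (SE 0.27, adjusted p = 5.21e-05 by edgeR) and -3.32 (SE 0.56, adjusted p = 0.00956 by edgeR), with no overlap of libraries. *Gria2*, the subunit that makes AMPA channels impermeable to calcium once its transcript is edited, had 10.1 and 17.4 CPM in P1 GFP+ and 7.36 and 14.7 CPM in P1 GFP- cells, where the groups overlapped. At P6 it had 0.788 and 2.91 CPM in GFP+ and 7.07 and 12 CPM in GFP- cells, a log2 difference of -2.32 that missed the criteria (adjusted p = 0.0320). In GFP+ cells the P6 libraries lay below the P1 libraries, at a log2 difference of -2.75 (adjusted p = 0.0353).

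**Figure D4:**
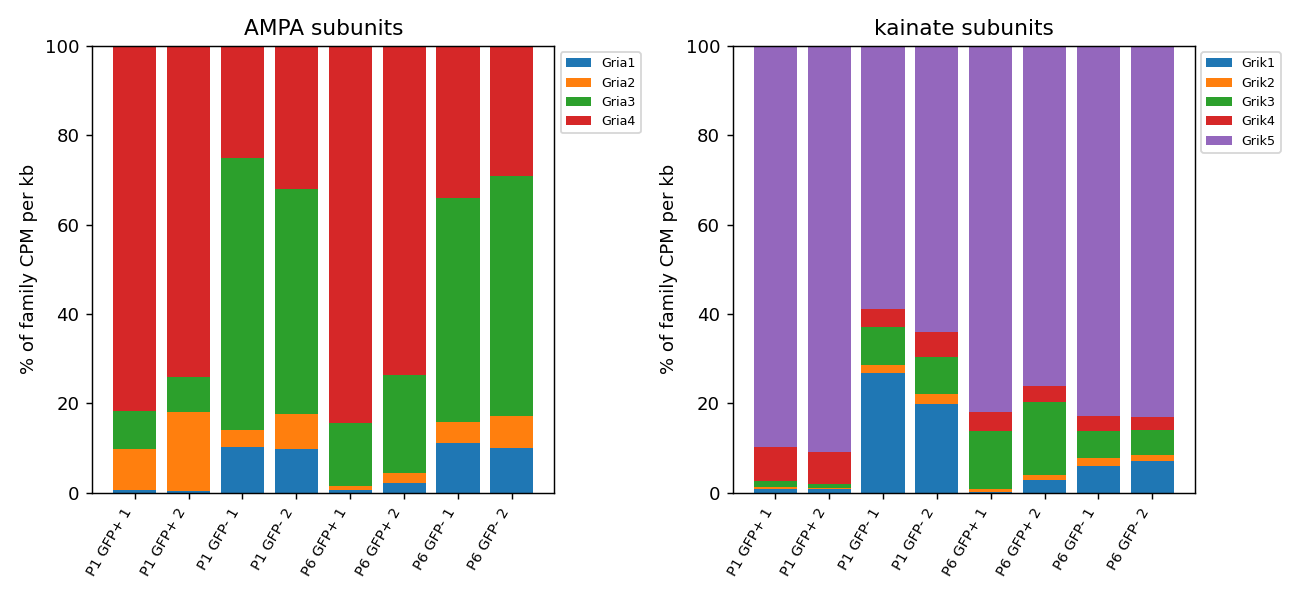
Share of each AMPA subunit (left) and kainate subunit (right) in the family's summed CPM per kb, one bar per library. *Gria4* fills 73.7% to 84.5% of the AMPA bars of GFP+ libraries and at most 34.0% of GFP- bars, and *Grik5* fills 59.0% to 90.8% of the kainate bars.

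The codon that decides calcium entry in AMPA channels is shown for the 4 genes, because *Gria2* encodes the same amino acid there as the others until its transcript is edited, and gene counts do not separate edited from unedited reads. Each stretch is 39 coding bases of the pore loop within 1 exon, on the coding strand, from the NCBIM37 transcripts, with the glutamine codon of the editing site in capitals.
Gria1 (chr11:57056581-57056619, plus strand, exon 11 of 16): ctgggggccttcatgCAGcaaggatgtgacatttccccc
Gria2 (chr3:80510812-80510850, minus strand, exon 11 of 17): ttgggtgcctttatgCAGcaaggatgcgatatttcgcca
Gria3 (chrX:38963427-38963465, plus strand, exon 12 of 17): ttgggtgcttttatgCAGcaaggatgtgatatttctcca
Gria4 (chr9:4464116-4464154, minus strand, exon 12 of 17): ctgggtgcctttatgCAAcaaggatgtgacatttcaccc
The genome encodes glutamine at this site in all 4 genes, as CAG in *Gria1*, *Gria2* and *Gria3* and as CAA in *Gria4*. The edited share of *Gria2* transcripts was not analysed here.

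Kainate subunits were lower in GFP+ cells at P1 in 3 of 5 cases. *Grik1* had 1.00 and 0.964 CPM in P1 GFP+ and 58.7 and 41.5 CPM in P1 GFP- cells, a log2 fold change of -5.55 (SE 0.25, adjusted p = 2.56e-05 by edgeR). *Grik2* had 1.48 and 0.924 CPM against 10.1 and 11.3 CPM, with -3.0 (SE 0.28, adjusted p = 0.000350 by edgeR). Both are low-affinity subunits that can form channels alone, as is *Grik3*. At P6 *Grik1* had 0.169 and 2.11 CPM in GFP+ and 6.24 and 8.69 CPM in GFP- cells, and neither gene passed. In GFP- cells *Grik1* fell from P1 to P6 by 2.56 (adjusted p = 0.000931).

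*Grik3* (ENSMUSG00000001985, chromosome 4, 125167944 to 125391417) had the fractions in a different order at the separate ages. It had 3.93 and 3.45 CPM in P1 GFP+ cells and 49.8 and 46.7 CPM in P1 GFP- cells, and 21.7 and 31.9 CPM against 17.1 and 18.5 CPM at P6. At P1 the log2 fold change was -3.59 (SE 0.14, adjusted p = 1.83e-05 by edgeR). At P6 both GFP+ libraries were above both GFP- libraries, at a log2 difference of 0.58 that did not pass (adjusted p = 0.0969). *Grik3* was the subunit that rose with age in GFP+ cells, by 2.94 (SE 0.25, adjusted p = 0.00387 by edgeR). The difference of the P6 and P1 log2 ratios was 4.16 (SE 0.27, adjusted p = 0.000393 by edgeR), and it passed under every alternative run.

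*Grik5* (ENSMUSG00000003378, chromosome 7, 25794872 to 25857388) had 120.5 and 135 CPM in P1 GFP+ and 149 and 154 CPM in P1 GFP- cells, and 58.5 and 62.9 CPM against 98.8 and 118 CPM at P6. No comparison of it reached 4-fold. *Grik4*, the other high-affinity subunit, was at 15.7 and 16.4 CPM in P1 GFP+ and 4.61 and 4.62 CPM in P6 GFP+ cells, with a log2 difference of -1.71 (adjusted p = 0.00701) that was also under 4-fold.

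*Grid1*, a delta subunit of the kind that organises synapses through cerebellins and opens no channel with glutamate, was lower in P1 GFP+ cells. It had 0.829 and 1.29 CPM against 51.3 and 40.4 CPM in P1 GFP- cells, with -5.39 (SE 0.24, adjusted p = 2.76e-05 by edgeR). At P6 it had 1.80 and 8.84 CPM in GFP+ cells, more in library 2, against 52.8 and 44.2 CPM in GFP- cells, and did not pass (adjusted p = 0.0165 by edgeR). *Grid2ip*, the non-subunit gene, was higher in P1 GFP+ cells, at 23.0 and 29.6 CPM against 5.67 and 5.29 CPM (log2 fold change 2.36, SE 0.16, adjusted p = 0.000111 by edgeR).

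NMDA receptors need the *Grin1* subunit with others of the family. *Grin1* had 0.895 and 0.643 CPM in P1 GFP+ and 3.01 and 9.22 CPM in P1 GFP- cells, a log2 fold change of -2.86 (SE 0.59, adjusted p = 0.00866 by edgeR), with the higher GFP- value in library 2. *Grin2a* (ENSMUSG00000059003, chromosome 16, 9577803 to 9995014), a glutamate-binding subunit, had 0.175 and 0.201 CPM against 18.2 and 11.3 CPM, with -6.19 (SE 0.39, adjusted p = 7.68e-05 by edgeR). *Grin2d*, another such subunit, with the highest level per kb of the family on average over the 4 groups, had 4.01 and 4.22 CPM against 29.5 and 28.9 CPM, with -2.72 (SE 0.13, adjusted p = 3.44e-05 by edgeR). With *Grin2c* these were the 4 of 7 NMDA subunits lower in P1 GFP+ cells. *Grin2b* was between 0.0324 and 0.686 CPM in the 8 libraries and passed in no comparison.

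*Grin3a* (ENSMUSG00000039579, chromosome 4, 49674483 to 49858616), which lowers calcium entry and binds glycine, was near equal in the fractions at P1 and split at P6. It had 7.79 and 8.24 CPM in P1 GFP+ and 5.38 and 7.24 CPM in P1 GFP- cells, a log2 difference of 0.44 (adjusted p = 0.117). At P6 it had 2.81 and 5.46 CPM in GFP+ and 20.7 and 22.1 CPM in GFP- cells, without overlap and with a log2 fold change of -2.36 (SE 0.33, adjusted p = 0.00593 by edgeR). The difference between the ages was -2.81 (SE 0.40, adjusted p = 0.00741 by edgeR), and it passed under every alternative run. *Grin3b* had 2.84 and 2.85 CPM in P1 GFP+ and 1.45 and 1.33 CPM in P1 GFP- cells and passed in no comparison. Its exons share 32.1% of their bases with another annotated gene, so its counts are uncertain.

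The P6 counts of subunits rested on single libraries more than the P1 counts. Without P6 GFP- library 1 there were 2 subunits higher and 0 lower in GFP+ cells, and without P6 GFP- library 2 there were 0 in either direction, with the spread then taken from the GFP+ libraries alone. Without P6 GFP+ library 2, the one with more mesenchyme and glia marker counts, 21 subunits were lower. At an adjusted p below 0.05 with no fold limit, 10 subunits were higher and 19 lower at P6, against 15.5% and 17.9% of all genes.

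The second comparison asks how the levels changed from P1 to P6 within a fraction. It uses the same libraries as the comparison of fractions, so the results are not independent. In GFP+ cells 40 subunits were tested, of which 1 rose (2.5%, against 1.63% of 17213 genes) and 4 fell (10.0%, against 0.930%). The one that rose was *Grik3* and those that fell were *Chrnd*, *Chrng*, *Chrna7* and *Gabrq*. The median log2 difference was 0.03, beside -0.00 for all genes. Markers of other cell types differed with age in GFP+ cells as well. The next counts are of markers higher at P6 at an adjusted p below 0.05 by edgeR with no fold limit. They were 5 of 6 for Schwann cells and glia (median log2 difference 3.13) and 3 of 4 for mesenchyme (median 2.42). They were 2 of 4 for macrophages (median 2.29), 1 of 3 for endothelium (median 2.27) and 2 of 3 tested for melanocytes. None of these passed the criteria. Melanocyte markers summed to 8.49 and 9.44 CPM in P1 GFP+ and 33.8 and 98.03 CPM in P6 GFP+ libraries. Of 10 neuron markers (median 0.89), 2 were higher by that threshold and 1 passed the criteria. Of 6 supporting cell markers, 2 fell past the criteria. The part of these cells in the subunit values was not tested. At an adjusted p below 0.05 alone, 4 rose and 10 fell, against 12.1% and 8.31% of all genes. Without P1 GFP+ library 2 there were 0 higher and 1 lower, which was *Chrng*, and without P6 GFP+ library 1 there were 5 higher.

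In GFP- cells 48 subunits were tested, of which 3 rose (6.25%, against 1.43% of 18920 genes) and 5 fell (10.4%, against 0.418%). *Chrna3*, *Chrnb4* and *Glrb* rose, and *Chrna6*, *Gabrb2*, *Chrnb3*, *Grik1* and *Gabrq* fell. *Gabrb2* had 10.5 and 12 CPM at P1 and 1.49 and 1.65 CPM at P6, a log2 fold change of -2.64 (SE 0.22, adjusted p = 0.000786 by edgeR). At an adjusted p below 0.05 alone, 4 rose and 19 fell, against 11.3% and 7.87% of all genes. The median difference of the tested subunits was -0.84 and that of all genes -0.02. All 10 neuron markers had negative log2 differences (median -1.96), with 6 lower at an adjusted p below 0.05 by edgeR and 2 past the criteria. The part of neurons in these changes was not tested. Without P6 GFP- library 1 there were 1 higher and 1 lower, without P6 GFP- library 2 there were 2 lower, and without P1 GFP- library 1 there were 10 lower.

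Whether the ratio of the fractions differed between the ages was tested as an interaction over all 8 libraries, with an adjusted p below 0.05. Of 49 subunits tested, 3 had a higher GFP+ to GFP- ratio at P6 (6.12%, against 3.60% of 19233 genes) and 4 a lower one (8.16%, against 2.79%). *Grik3*, *Gabrb2* and *Gabra4* were the 3, with *Gabrb2* at 2.67 (SE 0.59, adjusted p = 0.0364 by edgeR) and *Gabra4* at 2.14 (SE 0.50, adjusted p = 0.0451 by edgeR). In both, the GFP- level was lower at P6 than at P1, at 6.36 and 7.30 CPM of *Gabra4* against 17.0 and 12.9 CPM. *Grin3a*, *Chrng*, *Chrnb1* and *Grik5* were the 4, with -2.29 (SE 0.52, adjusted p = 0.0407 by edgeR) for *Chrng* and -1.29 (SE 0.20, adjusted p = 0.0108 by edgeR) for *Chrnb1*. The calls of *Gabrb2*, *Gabra4*, *Chrng* and *Grik5* were lost with the replicate number as a block, at adjusted p = 0.077, 0.090, 0.068 and 0.073 by edgeR. Leaving out 1 library at a time ended those of *Gabrb2* and *Gabra4* in 7 of 8 cases, that of *Grik5* in 6, that of *Chrng* in 5 and that of *Chrnb1* in 4, whereas *Grik3* and *Grin3a* passed in all 8.

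Other genes of these receptors were described with a list of 54, of which *Slc18a3* was not matched. At P1, 49 were tested, of which 5 were higher in GFP+ cells (10.2%, against 6.46% of all genes) and 11 lower (22.4%, against 11.4%), with a median log2 fold change of -0.51. At P6, 48 were tested, of which 6 were higher (12.5%, against 4.88%) and 5 lower (10.4%, against 3.10%), with a median of -0.84. The 11 cholinergic genes tested included 5 that were lower at P1 (45.5%, against the same 11.4%) and 2 at P6 (18.2%, against 3.10%), and 0 that were higher (2 and 1 at an adjusted p below 0.05 by edgeR with no fold limit). Among those lower at P1, *Slc5a7*, the choline transporter of cholinergic terminals, had 0.589 and 0.281 CPM in GFP+ and 39.2 and 41.9 CPM in GFP- cells (log2 fold change -6.31, SE 0.27, adjusted p = 2.36e-05 by edgeR). *Lrp4*, the agrin receptor, had 38.5 and 41.9 CPM against 393 and 292 CPM (log2 fold change -2.99, SE 0.17, adjusted p = 5.17e-05 by edgeR). *Rapsn*, which clusters muscle receptors, was at 0.807 to 1.78 CPM in the 8 libraries and passed in no comparison.

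Of the 12 genes for GABA and glycine handling that were tested, 2 were higher (16.7%, against 6.46% of all genes) and 1 lower (8.33%, against 11.4%) in GFP+ cells at P1. At P6, 3 were higher (25.0%, against 4.88%) and 1 lower (8.33%, against 3.10%). *Gad1*, which makes GABA, passed at P6 with 37.0 and 32.2 CPM against 4.46 and 3.87 CPM (log2 fold change 3.05, SE 0.21, adjusted p = 0.000956 by edgeR). *Gad2*, the second such enzyme, passed at P1 with 3.69 and 3.5 CPM against 0.449 and 0.333 CPM (log2 fold change 3.32, SE 0.31, adjusted p = 0.000340 by edgeR). *Gabarapl1*, which is related to a protein that moves GABA-A receptors, passed at P6 with 318 and 273 CPM against 67.5 and 62.9 CPM (log2 fold change 2.18, SE 0.19, adjusted p = 0.00159 by edgeR).

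Of the genes that act with glutamate receptors, 3 of 26 tested were higher (11.5%, against 6.46% of all genes) and 5 lower (19.2%, against 11.4%) in GFP+ cells at P1. At P6, 3 of 25 were higher (12%, against 4.88%) and 2 lower (8.0%, against 3.10%). *Nptx1*, a pentraxin that gathers AMPA receptors at synapses, had 44.2 and 41.3 CPM in P1 GFP+ and 1.77 and 2.30 CPM in P1 GFP- cells (log2 fold change 4.48, SE 0.17, adjusted p = 1.77e-05 by edgeR). *Nptx2*, a second pentraxin, had 84.7 and 89.0 CPM against 1.85 and 3.83 CPM (log2 fold change 4.99, SE 0.31, adjusted p = 7.07e-05 by edgeR). Neither overlapped between the fractions. *Grip2*, an AMPA receptor scaffold, had 1.4 and 2.17 CPM in P1 GFP+ and 49.0 and 46.5 CPM in P6 GFP+ cells and rose by 4.87 (SE 0.25, adjusted p = 0.00208 by edgeR). In GFP- cells at P6 it was at 0.892 and 1.36 CPM. *Cbln1*, a cerebellin that binds delta receptors, was higher in GFP+ cells at P1, at 5.02 and 6.35 CPM against 0.844 and 1.09 CPM (log2 fold change 2.63, SE 0.27, adjusted p = 0.000488 by edgeR), opposite to *Grid1*.

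The filter on low counts removed 8 subunits in every comparison of groups, namely *Chrna2*, *Gabra6*, *Gabrd*, *Gabrp*, *Gabrr1*, *Gabrr3*, *Glra1* and *Glra3*. Of the 58, 35 were tested in all 4 comparisons of groups and 36 passed in at least 1. For subunits near the floor of 3 counts in both groups compared, a difference was not detectable at this depth. That floor is 0.0443 to 0.169 CPM depending on the library.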

How the data were processed

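RNA-seq libraries came from GFP+ and GFP- cochlear cells of *LFng-GFP* mice at P1 and P6, in 4 groups of 2. The authors deposited whole-number counts per Ensembl gene, made with TopHat and HTSeq on mm9 according to the submitters' processing notes. The strand setting is not given in the sources used here, so overlapping genes may share reads. Counts were scaled to CPM by each library's total on genes, and per kb by NCBIM37 exon length. Each comparison was fitted over its 4 libraries with edgeR 4.0.16 (TMM, filterByExpr with a minimum count of 10, quasi-likelihood test) across all genes, with Benjamini-Hochberg adjustment, and the interaction over all 8. Genes were past the criteria at p and adjusted p below 0.01 and over 4-fold, and for the interaction at an adjusted p below 0.05. The test was checked on simulated data, in which all genes had the same spread and only genes with higher counts were changed, by more than 4-fold. That check does not cover subunits with low counts or changes near 4-fold. Alternatives were DESeq2 1.42.0, other scalings, no filter, all 8 libraries, a replicate block and leaving out each library. Intervals of low counts are exact, at 95%, and cover counting error only. Subunits were named with values if past the criteria in a comparison (up to the 10 largest changes per direction), past the interaction threshold, among the 3 highest per kb of their family, or of the muscle or hair cell receptor. *Chrna4*, *Chrna5*, *Chrnb2*, *Gria2*, *Grik2*, *Grik4*, *Grin1*, *Grin2b*, *Grin3b* and the partner genes named with values fell outside it and were chosen after their values were seen. Some genes that the rule names are not reported here, but are in the counts. Members, gene lists and tests were chosen with earlier results of these data known.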

Additional observations from a re-analysis of the deposited data

Results flagged for a closer look

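The GFP+ to GFP- ratio of 7 subunits differed between P1 and P6 by the interaction test of edgeR (adjusted p below 0.05), given as the P6 minus P1 difference of log2 ratios. It was 4.16 for *Grik3*, 2.67 for *Gabrb2* and 2.14 for *Gabra4*. It was -0.71 for *Grik5*, -1.29 for *Chrnb1*, -2.29 for *Chrng* and -2.81 for *Grin3a*. *Grik3* and *Grin3a* passed under every alternative that was run for them, and the other calls each ended under at least 1. Dissection differed between the ages, and its part in these differences cannot be told apart from that of age.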

How the results depend on the processing

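No direction of a called value reversed. The next counts cover the subunits named by the rule and *Grid2ip*, and include the crossed replicate numbers described below. Under the alternatives other than leaving out a library, 936 values kept their side of the threshold, 74 passed newly and 26 no longer passed. With 1 library left out these were 680, 53 and 79. Counts moved by over 1.5 times as follows, and the cause was not tested. At an adjusted p below 0.05 with no fold limit, 15 subunits were higher at P1, 19 lower at P6, 4 higher and 10 lower with age in GFP+ cells and 19 lower with age in GFP- cells. With library totals, 2 were lower at P6 and 2 had a lower interaction. With DESeq2, 14 were lower at P6, 3 higher with age in GFP+ cells, 8 lower with age in GFP- cells, and 11 and 8 had a higher and a lower interaction. With no filter on low counts these were 17, 3, 10, 19 and 8. With all 8 libraries in the fit, 15 were lower at P6 and 2 higher with age in GFP+ cells.

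Leaving out 1 library gave 7 to 10 higher and 15 to 25 lower at P1, 0 to 7 higher and 0 to 21 lower at P6, 0 to 5 higher and 1 to 6 lower with age in GFP+ cells, 1 to 4 higher and 1 to 10 lower with age in GFP- cells, and 1 to 13 higher and 1 to 9 lower interactions. Without P6 GFP- library 2 all 12 calls at P6 were lost, and without P6 GFP- library 1, 10 of 12. These fits leave a group of 1, which is assumed to vary like the other group.

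The replicate numbers are shared by the groups, but same-numbered libraries did not deviate together (correlations across genes of 0.059, 0.061, -0.18 and -0.33). The main fits therefore did not pair them. The check compares different fractions or ages, so it cannot exclude that same-numbered libraries shared a source. With the replicate block, 11 subunits were lower at P6 and 1 had a higher interaction. With the numbers crossed, an alternative chosen after seeing the data, 2 were higher with age in GFP+ cells and 8 lower in GFP- cells.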
